A study of Homo sapiens with 7 samples.

Results

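The clustered protocadherins are the 53 protein-coding genes of human chromosome 5 whose symbols begin with PCDHA (15 genes), PCDHB (16 genes) or PCDHG (22 genes). They were taken by symbol from the RefSeq gene table, which lists 19970 protein-coding genes on chromosomes 1 to 22 and X, and the rule uses no measured value. All peaks between the start of PCDHA1 and the end of the PCDHG cluster (hg38, chr5:140786140-141512975, 726836 bp) were used. Peaks are stretches of the genome enriched for 5-hydroxymethylcytosine (5hmC), the oxidised form of 5-methylcytosine that TET enzymes make. They come from hMe-Seal, in which 5hmC is tagged with an azide glucose and biotin and the tagged DNA is pulled down and sequenced. The cells were SH-SY5Y, a human neuroblastoma line, in which a lentivirus drives a short hairpin RNA. The control group carried the non-targeting hairpin shNC (3 libraries), and the knockdown group carried a hairpin against TDP-43 (shTDP43, 3 libraries), the TARDBP gene product, which binds nucleic acids and acts in splicing. The treatment text describes puromycin selection and continued puromycin for the stable knockdown line. The labels name no clones and do not say whether the libraries of a group came from separate cultures, so the spread between them may be technical. Peak lists hold no measure of TDP-43, so the knockdown could not be checked in them, and an input library labelled control was not used here.

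The clustered protocadherins are cell-surface cadherins that give neurons a molecular identity, which lets sister branches of a cell recognise and avoid each other. In the PCDHA and PCDHG clusters each gene has its own promoter and its own large variable exon, which encodes the extracellular domain, the membrane span and the start of the cytoplasmic tail. Every variable exon of a cluster is spliced to the same set of constant exons at the cluster's 3′ end, which encode the shared end of the tail. PCDHB genes are single-exon genes without constant exons. Most genes of the family, called alternate genes, are switched on at random in single neurons, and methylation of their promoter DNA goes with silence. CTCF and cohesin loop the chosen promoters to enhancers. The C-type genes PCDHAC1, PCDHAC2, PCDHGC3, PCDHGC4 and PCDHGC5 lie last in their clusters, next to the constant exons, and are regulated apart from the alternate genes.

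The sequence around the gene starts differed between these classes, with some overlap. RefSeq promoter windows (GRCh38.p14, plus strand, 250 bp before to 50 bp after the start) matched 47 of the 53 genes. PCDHA3, PCDHA13, PCDHB6, PCDHB11, PCDHGA12 and PCDHGC5 were not among them. For 5 members the table gives a second start, and counts are over the first start unless said otherwise. The 5 windows below are shown because they mark the ends of the contrast between covered and peak-free exons: the C-type genes of each cluster whose variable exons had the highest peak coverage, then 1 gene of each cluster with no peak in its variable exon, picked by hand as examples. CpG dinucleotides, the usual substrate of cytosine methylation and hydroxymethylation, are in capitals.
PCDHAC2, chr5:140966226-140966525: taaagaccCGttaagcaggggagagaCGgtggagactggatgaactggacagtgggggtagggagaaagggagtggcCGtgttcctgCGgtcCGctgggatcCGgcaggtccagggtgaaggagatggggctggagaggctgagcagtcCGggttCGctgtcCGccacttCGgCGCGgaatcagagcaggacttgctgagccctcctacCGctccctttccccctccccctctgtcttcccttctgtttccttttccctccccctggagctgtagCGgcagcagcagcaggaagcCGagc
PCDHGC4, chr5:141484780-141485079: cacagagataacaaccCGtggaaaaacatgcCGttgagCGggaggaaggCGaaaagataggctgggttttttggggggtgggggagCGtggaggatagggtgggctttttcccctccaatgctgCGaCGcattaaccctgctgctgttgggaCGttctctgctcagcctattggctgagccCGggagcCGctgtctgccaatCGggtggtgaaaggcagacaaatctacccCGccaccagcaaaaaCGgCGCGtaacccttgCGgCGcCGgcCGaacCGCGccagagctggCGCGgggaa
PCDHA12, chr5:140875058-140875357: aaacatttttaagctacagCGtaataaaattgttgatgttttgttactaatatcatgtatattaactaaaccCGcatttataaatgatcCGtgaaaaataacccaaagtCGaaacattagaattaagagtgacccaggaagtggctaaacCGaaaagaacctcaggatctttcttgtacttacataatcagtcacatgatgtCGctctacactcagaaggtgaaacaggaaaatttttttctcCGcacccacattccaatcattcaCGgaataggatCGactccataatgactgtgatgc
PCDHB15, chr5:141245145-141245444: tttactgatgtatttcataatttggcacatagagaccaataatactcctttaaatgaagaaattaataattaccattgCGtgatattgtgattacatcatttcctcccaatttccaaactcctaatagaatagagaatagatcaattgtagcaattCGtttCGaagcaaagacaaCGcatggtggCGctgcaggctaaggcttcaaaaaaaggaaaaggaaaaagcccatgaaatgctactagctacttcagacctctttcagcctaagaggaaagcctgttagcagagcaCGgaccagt
PCDHGA4, chr5:141354771-141355070: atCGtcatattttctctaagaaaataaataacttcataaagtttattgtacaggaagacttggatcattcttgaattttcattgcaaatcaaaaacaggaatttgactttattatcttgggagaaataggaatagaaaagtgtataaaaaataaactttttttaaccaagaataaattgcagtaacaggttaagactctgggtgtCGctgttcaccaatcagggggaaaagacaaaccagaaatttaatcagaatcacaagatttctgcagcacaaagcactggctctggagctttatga

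The PCDHAC2 window held 15 CpGs and the PCDHGC4 window 23, against 9 in PCDHA12, 6 in PCDHB15 and 2 in PCDHGA4. Over the 4 C-type windows the CpG number ran from 15 to 27 with a median of 20.5, and GC content from 59% to 66%. The other 43 windows held 2 to 16 CpGs with a median of 7, and their median GC content was 38.7%. PCDHGA genes had the fewest, with a median of 5, PCDHA1 to PCDHA13 had 7, PCDHB genes 7.5 and PCDHGB genes 11. The median over all 27305 windows of the table was 14 CpGs and 58.3% GC, so the 4 C-type genes lay above it and the alternate and PCDHB genes mostly below. The second starts went across the classes: those of PCDHGB4, PCDHGB5 and PCDHGB6 held 17, 19 and 25 CpGs, within the C-type range, that of PCDHGB1 held 11, and that of the C-type gene PCDHGC4 held 24. The 4 letters CGCT, the core of a conserved element known from clustered protocadherin promoters, occurred on either strand in 46 of the 47 windows and in 69.4% of all windows of the table. PCDHA9 was the window without it. A match to these 4 letters does not show that the whole element is present, and it is no measure of binding.

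The lists held 117949, 157157 and 126966 peaks in controls 1, 2 and 3, and 142605, 119820 and 130412 in knockdowns 1, 2 and 3. They covered 78.2 to 111 Mb. The number of reads behind each list is not given in the sources used here. A difference between lists in sensitivity to weak 5hmC therefore cannot be told apart from a difference in 5hmC. Variable exons resemble one another, and how reads that map to several of them were treated is also not given in the sources used here. A stretch with no peak may still carry 5hmC below the calling threshold.

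Most peaks lay at the 3′ ends of the PCDHA and PCDHG clusters, over the C-type genes and the constant parts, in controls and knockdowns alike. The constant parts include introns, and peaks were not assigned to constant exons or introns, since exon coordinates were not used here. A region in all 6 lists (chr5:141512266-141513306) runs across the end of the PCDHG cluster. The locus held 28, 26 and 22 peaks in the 3 control lists and 20, 15 and 23 in the 3 knockdown lists, 134 in all. PCDHA, with 31.1% of the length of the locus, held 78 of them (58.2%), and PCDHG, with 25.1% of the length, held 41 (30.6%). PCDHB made up 27.2% of the length and held 6 peaks (4.48%). Within PCDHA, 45 peaks lay in the constant part and 28 in the stretch from PCDHAC1 to the end of the PCDHAC2 variable exon, which are 5.90% and 5.94% of the locus. The 13 alternate PCDHA genes, in 19.3% of the locus, shared 5 peaks. Within PCDHG, 24 peaks lay in the constant part, 16 over the C-type genes, and 1 over the 19 PCDHGA and PCDHGB genes.

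**Figure D1:**
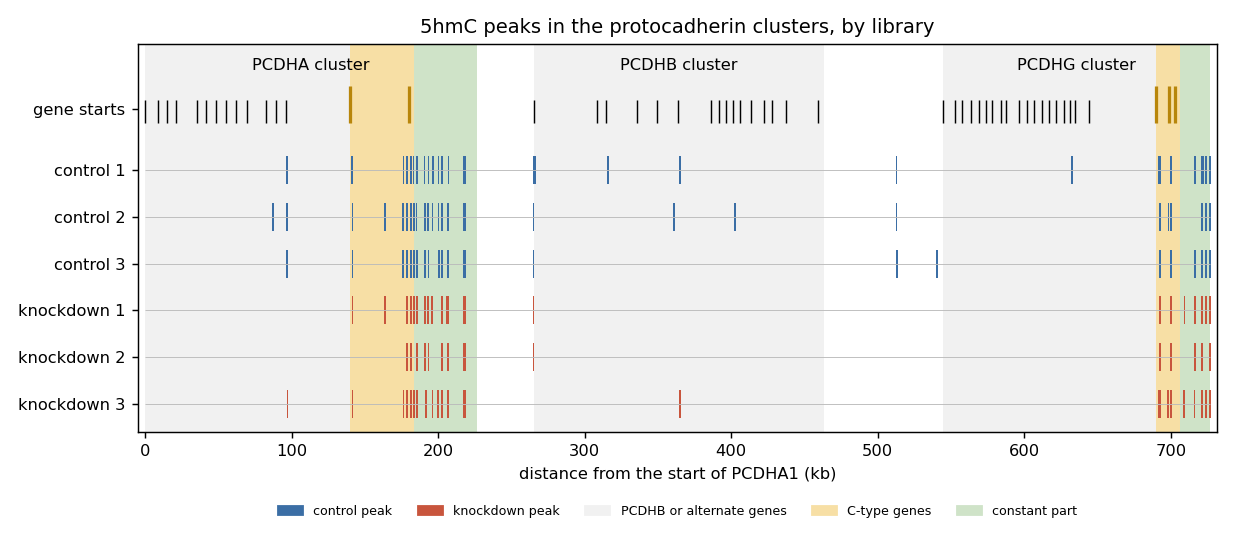
Peaks of each library (coloured blocks, 1 row per library, drawn at least 1.2 kb wide) against the distance in kb from the start of PCDHA1, with gene starts as ticks (C-type genes taller and gold) and shading for alternate genes and PCDHB, C-type genes and constant parts. Most of the 134 peaks sit over the C-type and constant parts in every library, and long stretches over the alternate genes are empty in all 6.

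Coverage, the percentage of bases of a stretch that lie under a peak, put the clusters in the same order in every library. PCDHA was covered to 4.22%, 5.79% and 4.58% in control libraries 1 to 3 and to 4.49%, 3.02% and 3.70% in knockdowns 1 to 3. PCDHG was covered to 3.14%, 2.07% and 2.01% in the controls and to 2.30%, 1.89% and 2.70% in the knockdowns. PCDHB reached 0.550% in control 1, 0.409% in control 2 and 0.160% in knockdown 3, and had no peak in the other 3 libraries. PCDHA lay above PCDHG, and PCDHG above PCDHB, in 6 of 6 libraries. The mean differences within a library were 4.12 percentage points for PCDHA over PCDHB (SD 0.858, n = 6), 1.95 for PCDHA over PCDHG (SD 1.09, n = 6) and 2.16 for PCDHG over PCDHB (SD 0.371, n = 6). Each had an exact two-sided sign-flip permutation p of 0.03125 over the 6 libraries, before and after Benjamini-Hochberg adjustment over the 3 pairs, the smallest p that 6 libraries allow. Set beside windows of the same length across the genome, PCDHA had more coverage than 75.0% of them, PCDHG more than 56.4% and PCDHB more than 26.3%. The windows include unassembled sequence, and 22.8% of those of the length of PCDHB had no peak at all.

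The constant parts were the most densely covered stretches of the locus. Exon coordinates were not used here, so each constant part was taken from 3000 bp after the start of the last variable gene (PCDHAC2 or PCDHGC5) to the end of the cluster, introns included. The PCDHA constant part (42872 bp) was covered to 14.5%, 20.4% and 16.7% in control libraries 1 to 3 and to 17.8%, 13.2% and 13.0% in knockdowns 1 to 3. The PCDHG constant part (20895 bp) was covered to 17.4%, 10.8% and 11.6% in the controls and to 15.4%, 10.8% and 14.0% in the knockdowns. The groups overlapped in both. These levels were above those of 97.3% and 94.6% of genome windows of the same lengths. The variable parts, from the start of each cluster to its constant part, had mean coverages over the 6 libraries of 1.58% in PCDHA and 0.930% in PCDHG. Variable minus constant coverage was -14.3 points in PCDHA (SD 2.54, n = 6) and -12.4 points in PCDHG (SD 2.59, n = 6), lower in the variable part in 6 of 6 libraries each, with an adjusted exact sign-flip permutation p of 0.03125 for both. With the C-type genes left out of the variable part, an alternative added after the data were seen, the differences were -15.7 and -13.3 points. With the PCDHA constant region as the gene table annotates it, also added after the data were seen, the PCDHA difference was -13.3 points.

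Within the variable parts, coverage differed between the C-type and alternate stretches. These stretches include the sequence between genes. The C-type stretches also lie next to the constant parts, so class and position cannot be told apart. The C-type stretch of PCDHA (43177 bp) was covered to 6.76%, 8.32% and 6.42% in the controls and to 5.86%, 2.72% and 5.75% in the knockdowns. The C-type stretch of PCDHG (16115 bp) was covered to 10.6%, 9.41% and 7.65% in the controls and to 6.11%, 7.40% and 12.4% in the knockdowns. The alternate PCDHA genes, in a stretch of 140159 bp, had coverages of 0.305%, 0.542% and 0.321% in the controls and 0%, 0% and 0.220% in the knockdowns. The alternate PCDHG genes, in 145452 bp, had 0.261% in control 1 and no peak in the other 5 libraries. The C-type stretches were above 83.5% (PCDHA) and 89.2% (PCDHG) of genome windows of their lengths, and the alternate stretches above 28.7% and 25.5%, where 24.8% and 24.6% of the windows held no peak.

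**Figure D2:**
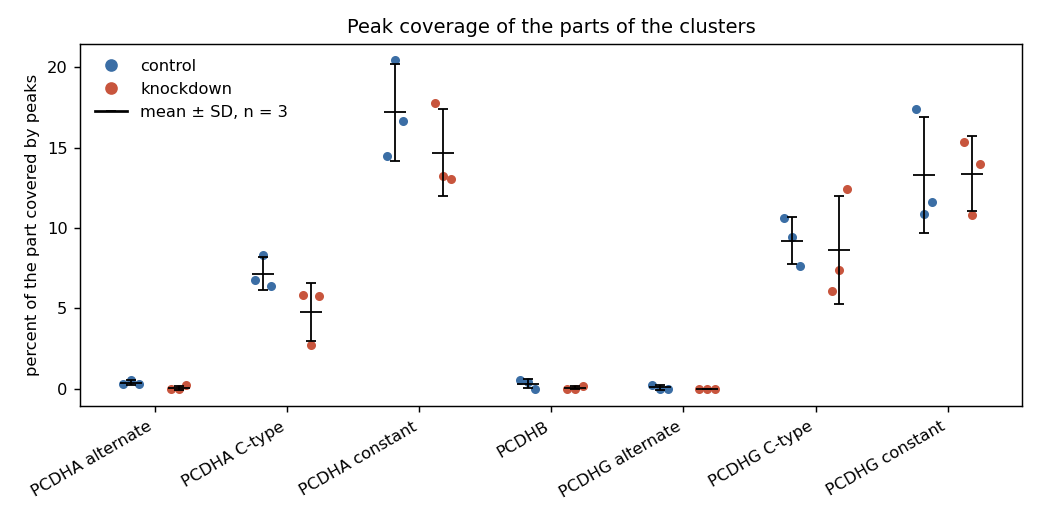
Percentage of each part of the clusters covered by peaks, with 1 point per library, and the mean and SD of the 3 libraries of each group in black. The constant parts lie between 10.8% and 20.4%, the C-type stretches between 2.72% and 12.4%, and the alternate genes and PCDHB below 0.6% in every library.

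The long peak-free gaps of the locus held the starts of many alternate and PCDHB genes and that of the C-type gene PCDHGC3. They also took in sequence outside the clusters. The longest ran over 161316 bp (chr5:140711458-140872773), from before the cluster past the starts of 11 genes, PCDHA1 to PCDHA11, with no peak in any of the 6 lists. It was longer than 99.5% of the 200795 gaps between peaks in the genome, whose median was 4418 bp. A gap of 110025 bp held the starts of the 6 genes PCDHB10 to PCDHB15 and ran on to the stretch between PCDHB and PCDHG. A gap of 91267 bp (chr5:141326686-141417952) held 17 starts, PCDHGA1 to PCDHGB7, and a gap of 58882 bp held PCDHGA11, PCDHGA12 and PCDHGC3. Gaps over 50 kb were 4 of the 34 of the locus and 3.34% of all gaps.

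Each gene was then given a stretch that no other member shares, the 2500 bp after its start, which stands in for its variable exon. A peak in any library was found in 10 of the 53 variable exons, and 43 held none in all 6. By class, the 10 were 4 of the 5 C-type genes and 6 of the 48 others. Coverage of the 5 C-type exons together was 26.5%, 19.6% and 20.8% in the controls and 16.7%, 14.8% and 23.2% in the knockdowns. In the other 48 exons together it was 1.58%, 0.716% and 0.375% in the controls and 0%, 0% and 0.522% in the knockdowns. The classes did not overlap in any pair of libraries. This split by class was chosen after the values were seen and is given without a test. Among 15412 coding genes with a listed strand, 61.8% held no peak in their first 2500 bp, 14.9% held one in every library, and the mean coverage was 6.06%.

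PCDHAC2 had the highest variable-exon coverage of the family. Peaks covered 49.2%, 40.8% and 45.9% of it in control libraries 1 to 3 and 33.8%, 32.2% and 36.1% in knockdowns 1 to 3. All 3 knockdown values lay below all 3 control values, at 34.1% ± 1.93 (SD, n = 3) against 45.3% ± 4.25 (SD, n = 3), with an exact permutation p of 0.1, the smallest that 3 against 3 allows. The peak common to all 6 lists lay 688 to 1667 bp after the start (chr5:140967164-140968143). Among the peaks of the locus it had the highest −log10 q, the authors' measure of peak certainty, in all 3 control lists and in knockdown 3. A peak at 2196 to 2870 bp (chr5:140968672-140969346) was in every list except that of knockdown 2.

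PCDHGC4 came next, with 36.3%, 33.0% and 31.9% in the controls and 19.4%, 33.8% and 31.5% in the knockdowns. Knockdown 1 was the low value, and the groups overlapped. Its peak (chr5:141485543-141486484) lay 513 to 1454 bp after the start in all 6 lists, at about the distance seen in PCDHAC2. PCDHGC3 varied most among the C-type genes of its cluster, with 27.4%, 8.92% and 12.5% in the controls and 12.4%, 8.12% and 30.4% in the knockdowns. A peak near the end of its exon (chr5:141478153-141478654) was in all 6 lists, and control 1 and knockdown 3 had a second one before it, 1248 to 1962 bp after the start. PCDHAC1 was covered to 19.7%, 15.3% and 13.5% in the controls, to 17.7% and 18.2% in knockdowns 1 and 3, and had no peak in knockdown 2. That peak lay 680 to 1210 bp after the start (chr5:140926979-140927509). PCDHGC5 held no peak in its first 2500 bp in any list. The stretch from its start to the end of the cluster, most of which is the constant part, was covered to between 9.45% and 15.2%.

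Among the alternate and PCDHB genes, PCDHA13 was the member with a peak in the most libraries, 4 of 6. Its exon was covered to 17.1%, 16.4% and 18.0% in the controls and to 0%, 0% and 12.4% in the knockdowns, 17.1% ± 0.820 against 4.12% ± 7.14 (SD, n = 3 each; exact permutation p = 0.1). Every control lay above every knockdown, and knockdown 3 alone kept a peak, with a −log10 q of 1.6 in the authors' list. The region (chr5:140882532-140883009) starts 408 bp after the gene's start. PCDHA13 is the last alternate gene before PCDHAC1. The remaining exons had peaks in 1 or 2 libraries. PCDHB6 had 15.0% in control 1 and 12.7% in knockdown 3, and PCDHB9 had 18.0% in control 2. PCDHB3 had 14.5%, PCDHB1 14.0% and PCDHGB7 15.2%, all in control 1 alone. Apart from that of PCDHB6 in knockdown 3, these values rest on single peaks in the control 1 and control 2 lists, and without control 1 the number of alternate and PCDHB exons with a peak was 3 in place of 6. None of the 12 PCDHGA genes had a peak in its exon.

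**Figure D3:**
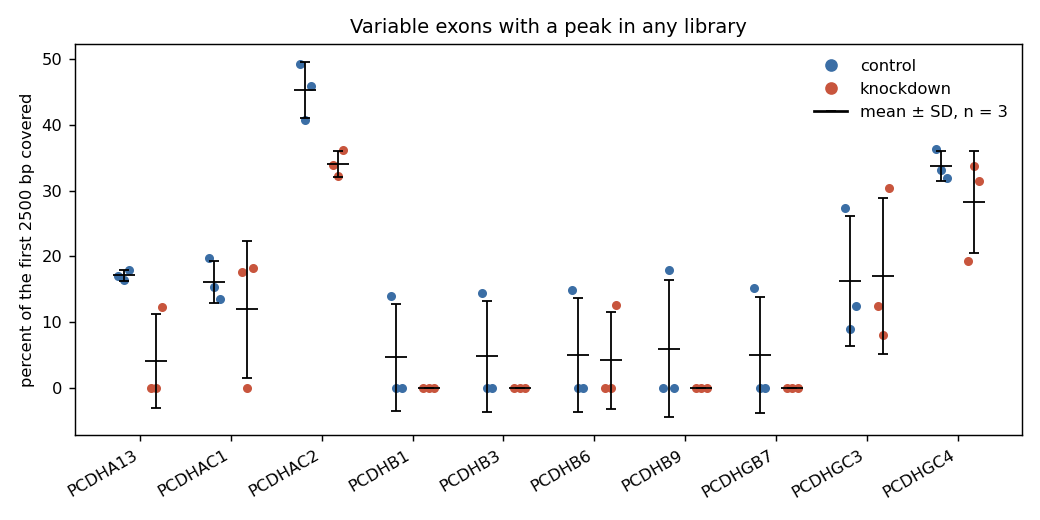
Percentage of the first 2500 bp covered by peaks for the 10 members with a peak in any library, with 1 point per library and the mean and SD of each group of 3. PCDHAC2 and PCDHA13 are the genes whose groups do not overlap, and 4 genes (PCDHB1, PCDHB3, PCDHB9 and PCDHGB7) have a single library above 0.

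Counted over the family, variable-exon coverage was higher in the control mean in 9 of the 10 exons with a peak and higher in the knockdown mean in PCDHGC3. PCDHB1, PCDHB3, PCDHB9 and PCDHGB7 entered this count through 1 control list each, which fixed their direction, so the count is no test. Over all 5682 gene starts tested, 66.5% were lower in knockdown without centring on each library's median and 46.4% with it. The groups did not overlap in PCDHA13 and PCDHAC2, and controls were higher in both. Among the first 2500 bp of all 15412 genes, 5.77% had non-overlapping groups with controls higher and 1.03% with knockdowns higher. The members' 2 of 53 is near that background. Pooled within a cluster, exons had more coverage than the spacers between them in PCDHA, by 3.40 points (SD 1.11, higher in 6 of 6 libraries). In PCDHG they had more by 2.04 points (SD 0.799, higher in 6 of 6). Each had an adjusted exact sign-flip permutation p of 0.046875 over n = 6 libraries. In PCDHB the difference was 0.735 points (SD 1.06), present in 3 libraries and 0 in the other 3, with an adjusted exact p of 0.25. These differences rest on few exons. A peak in any library was found in 3 of 15 PCDHA exons (PCDHA13, PCDHAC1 and PCDHAC2). The same held for 3 of 22 PCDHG exons (PCDHGB7, PCDHGC3 and PCDHGC4) and 4 of 16 PCDHB exons. They are therefore not a trait of most exons of a cluster.

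The starts themselves were almost free of peaks, which lay further inside the exons and, for some genes, also upstream. Of the 53 windows from 250 bp before to 50 bp after the start, 1 overlapped a peak, that of PCDHB1 in a single list. In the profile of the 5 C-type genes, the 500-bp bins on either side of the start had coverage 0 in both groups. Mean coverage was 40.2% ± 3.51 in controls and 33.5% ± 6.46 in knockdowns (SD, n = 3 each) at 500 to 1000 bp after the start, and 45.2% ± 7.53 against 37.7% ± 6.23 at 1000 to 1500 bp. At 2000 to 1500 bp before the C-type starts, mean coverage was 15.5% ± 4.33 against 13.5% ± 4.46. This coverage came from the peak before PCDHAC2 (chr5:140964270-140965042), which was in all 6 lists. At 3000 to 2500 bp before the starts, mean coverage was 14.2% ± 0.540 against 9.29% ± 7.83. That value is the exon peak of PCDHGC4 (chr5:141485543-141486484) counted again, since the peak reaches into this bin of PCDHGC5. The other 48 genes had their highest bin at 500 to 1000 bp too, at 2.99% ± 1.61 against 0.869% ± 1.51.

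**Figure D4:**
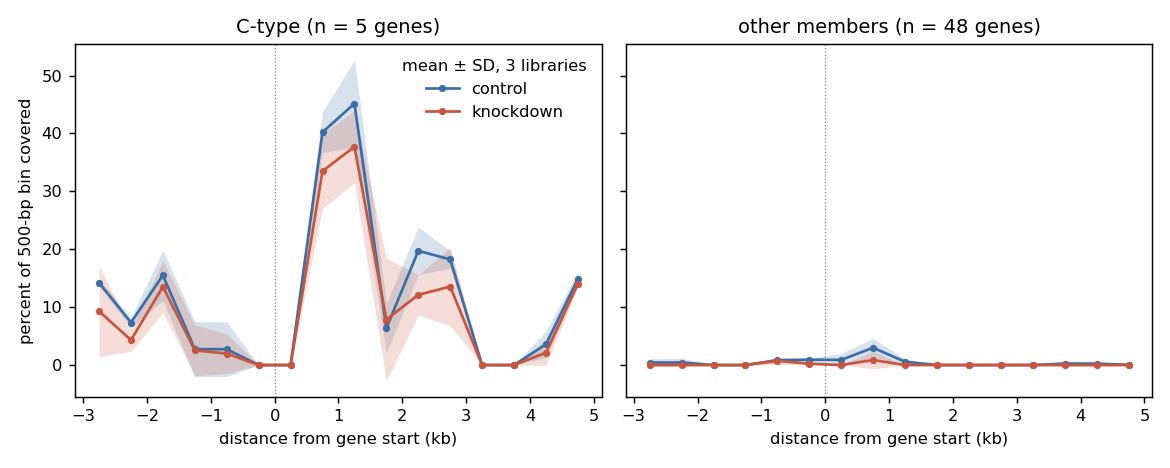
Mean coverage of 500-bp bins against the distance in kb from the gene start for the 5 C-type genes (left) and the other 48 members (right), with bands of 1 SD over the 3 libraries of each group. C-type coverage is 0 beside the start, up to 15.5% in bins upstream, and reaches 45.2% in controls and 37.7% in knockdowns at 1 to 1.5 kb, and the other members stay at or below 2.99%. The highest upstream bins of the C-type genes hold the peak before PCDHAC2 and the exon peak of PCDHGC4, which lies upstream of PCDHGC5.

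Among the genes with a window, covered exons went with many CpGs at the first start. The 4 C-type windows, with 15 to 27 CpGs, belonged to exons of mean coverage 14.1% to 39.7%. The other 43 first-start windows, with 2 to 16 CpGs, belonged to exons of mean coverage 0% to 3%. At their second starts PCDHGB4, PCDHGB5 and PCDHGB6 had 17 to 25 CpGs, and their exons held no peak. The 6 genes without a window include those that break the contrast in coverage: PCDHA13 at a mean of 10.6%, PCDHB6 at 4.61% and the C-type gene PCDHGC5 at 0%. Within the C-type genes coverage did not follow the CpG number, since PCDHAC1 had the most CpGs and the lowest coverage of the 4. The points share cluster position and sequence composition, so this is a description of 47 genes.

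**Figure D5:**
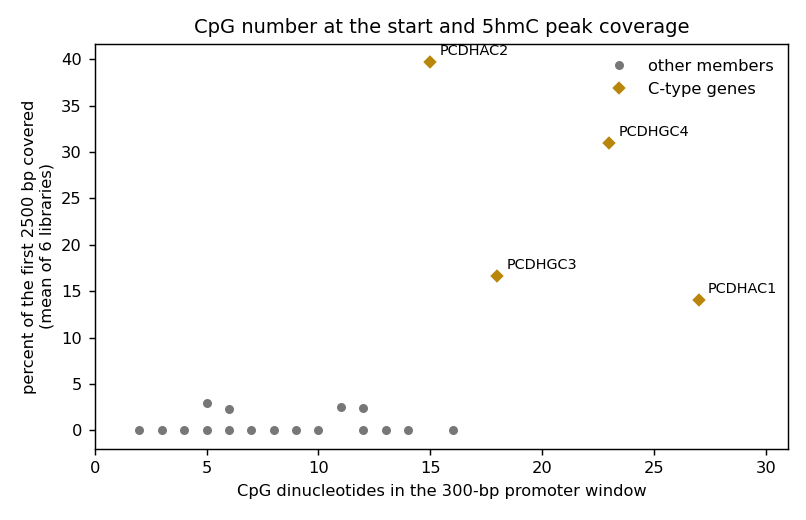
Mean variable-exon coverage over 6 libraries against the number of CpG dinucleotides in the 300-bp promoter window at the first listed start of the 47 matched members (points with the same values lie on each other). PCDHA13, PCDHB6 and PCDHGC5 have no window, and second starts, of up to 25 CpGs over peak-free exons, are not drawn. The 4 C-type genes (gold) lie at 15 CpGs or more and above 14% coverage, and the other members (grey) at 16 or fewer and at or below 3%.

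Merging the overlapping peaks of the 6 lists gave 34 regions in the locus, and 11 of them were in all 6 lists. That was 32.4% of them, against 35.5% of the 200818 merged regions of the genome. The PCDHA constant part held 8 regions, 5 of them in all 6 lists, and the PCDHG constant part 5, of which 2 were in all 6. The 5 PCDHB regions were in 1 list each, apart from that of PCDHB6, which was in 2. The widest region was in the PCDHG constant part (chr5:141506624-141508731, 2108 bp) and the next in the PCDHA constant part (chr5:141003245-141005172, 1928 bp), both in all 6 lists. A region 21461 to 22456 bp after the start of PCDHAC2, in the PCDHA constant part (chr5:140987937-140988932), had the highest fold enrichment of the locus in the lists of knockdowns 1, 2 and 3 and of control 3. In the authors' values it was 8.90, 10.2 and 10.7 in controls 1 to 3 and 14.7 to 14.9 in the knockdowns. By fold enrichment it ranked above 96.2% to 96.6% of all peaks of the knockdown lists and above 89.1% of those of control 3. In control 1 the highest was a region 37971 bp after the start of PCDHAC1, upstream of PCDHAC2, and in control 2 a region 12337 bp after the start of PCDHAC2. Fold values are set against each list's own background and were compared within lists alone.

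TDP-43 knockdown lists covered less of the locus as a whole. Controls 1, 2 and 3 had 2.39%, 2.60% and 2.15% of the locus under peaks, and knockdowns 1, 2 and 3 had 2.02%, 1.46% and 1.87%, which gives 2.38% ± 0.225 against 1.79% ± 0.290 (SD, n = 3 each). Every control lay above every knockdown, with an exact permutation p of 0.1, the smallest that 3 against 3 allows. Among 3586 genome windows of this length with any peak, 14.4% had controls above knockdowns without overlap and 0.669% the reverse. As a share of each list's covered bases, which was not set against genome windows, the locus also lay higher in all 3 controls. As a share of each list's peaks it did not separate the groups (exact permutation p = 0.3).

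By cluster, PCDHA averaged 4.87% ± 0.821 in controls and 3.74% ± 0.733 in knockdowns (SD, n = 3 each; difference -1.13 points, exact permutation p = 0.2). PCDHA peaks numbered 15, 16 and 13 in the controls and 12, 9 and 13 in the knockdowns. PCDHB averaged 0.320% ± 0.285 against 0.0534% ± 0.0924 (exact permutation p = 0.4, n = 3 each). PCDHG averaged 2.41% ± 0.635 against 2.30% ± 0.403 (exact permutation p = 0.8, n = 3 each), and its peaks numbered 8, 6 and 6 in the controls and 7, 5 and 9 in the knockdowns. In percent covered, the groups overlapped in all 3 clusters. As a share of each list's covered bases or of its peaks, PCDHA lay higher in all 3 controls than in any knockdown (exact permutation p = 0.1 for each). These shares were not set against genome windows. The PCDHA difference of -1.13 points was -0.667 without control 2, and the PCDHG difference of -0.110 points turned to 0.256 without control 1 and to 0.0918 without knockdown 2.

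Within PCDHA, the coverage of the groups did not overlap in the variable part and overlapped in the constant part. These parts were not set against genome windows of their lengths for such separation. In windows of the length of the whole locus with any peak, 14.4% had controls higher without overlap. The variable part was covered to 1.83%, 2.37% and 1.76% in the controls and to 1.38%, 0.640% and 1.52% in the knockdowns (exact permutation p = 0.1, n = 3 each). The C-type stretch averaged 7.17% ± 1.01 against 4.77% ± 1.78 and the constant part 17.2% ± 3.00 against 14.7% ± 2.70 (SD, n = 3 each), with exact permutation p of 0.1 and 0.3. The test of the difference itself, variable minus constant coverage in knockdowns against controls, gave 1.71 points with an exact permutation p of 0.5 in PCDHA and -0.211 points with p = 0.9 in PCDHG. The PCDHA value was 0.295 without control 2, 0.715 without knockdown 3 and 3.17 without knockdown 1. The parts were therefore not shown to respond differently.

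Region by region, more control than knockdown lists held the peak in 16 of the 34 regions, fewer in 2 and as many in 16. Those shares were 47.1% and 5.88%, against 28.6% and 25.5% over all merged regions of the genome. In 8 regions some control and no knockdown list held the peak, and 7 of these were in a single list. That was 23.5% of the regions, against 17.3% of all merged regions, and the reverse held for 1 region (2.94%, against 13.6%). One region was in all 3 controls and no knockdown (2.94% of the 34, against 1.97% of all merged regions), and none in all 3 knockdowns and no control (1.06% of all merged regions). The control-only region (chr5:141298346-141299052, 707 bp) lies between PCDHB and PCDHG, outside every member and 3583 bp from SLC25A2, a mitochondrial ornithine carrier gene within the locus. The authors' fold enrichment there was 3.7, 3.0 and 2.6 in controls 1 to 3, below the median of each list. With equal numbers of peaks taken from each list there were 3 control-only regions in the locus. The one region found in knockdown lists and no control (chr5:141494631-141495170) was a weak peak in the PCDHG constant part, in knockdowns 1 and 3.

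Tests fitted across the genome called no member. Coverage was taken as log2(percent + 1), centred on the median of each library and compared with limma, with Benjamini-Hochberg adjustment over all features and a threshold of 0.05. A value on this scale is a difference in peak coverage that understates changes of thinly covered genes. Over whole gene bodies, 40 of the 53 members had the mean coverage of at least 1% that entry to the test required, and 0 passed. The smallest adjusted limma p was 0.456, and 0 had an unadjusted p under 0.05. Of all 10824 gene bodies, 0.212% were called higher and 0.711% lower in knockdown. PCDHA and PCDHG gene bodies all run to the end of their cluster and share the peaks of its constant part, so these 40 values are far from independent. Their directions also depended on the scale: 23 of 40 were above 0 with centring and 1 of 40 without it, when the median of all genes was -0.09 in place of 0.02. Without control 2 it was 0 of 39, and without knockdown 3 it was 4 of 40.

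In fits that give each base once, the lower values in knockdown did not pass either. Of the 16 windows of 10 kb in the locus that could be tested, 0 were called and 3 had an unadjusted p under 0.05, all lower in knockdown. The window that holds the control-only region between PCDHB and PCDHG stood at -2.84 on the log2 scale (SE 0.52, limma adjusted p = 0.147). It had no knockdown peak and entered the test through the controls alone, which fixed its direction. The shared direction of the 3 windows is therefore no test. The window with PCDHAC2 and the end of the PCDHAC1 stretch had -0.61 (SE 0.19, limma adjusted p = 0.228). The window with PCDHA13 had -1.67 (SE 0.70, limma adjusted p = 0.388). Across the genome 0% of 102619 windows were called higher and 0% lower, and 12.6% had an unadjusted p under 0.05. Of the first 2500 bp of genes, 10 members were tested and 0 called, with 0 at an unadjusted p under 0.05. PCDHA13 had the smallest adjusted limma p, 0.480, at a log2 difference of -2.65 (SE 1.13), and PCDHAC2 had -0.12 (SE 0.16). Without centring, the median of all gene starts was -0.21 in place of 0.07, and 2 members had an unadjusted p under 0.05, both lower, with 0 called. Of the 5682 gene starts tested 0% were called higher and 0% lower, with 572 at an unadjusted p under 0.05.

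Genes related by family, pathway or position gave a frame for these levels, as gene-body coverage. Among 12 nonclustered protocadherins, single genes whose promoters are not chosen at random, 7 held peaks and the median was 2.38%. PCDH12, an endothelial and trophoblast protocadherin further along the same chromosome arm, had the highest, 10.5% ± 2.07 in controls and 11.7% ± 1.52 in knockdowns (SD, n = 3 each). PCDH18 was covered to 3.99%, 7.58% and 6.84% in the controls and to 9.60%, 10.9% and 8.87% in the knockdowns, higher in every knockdown library than in any control (exact permutation p = 0.1). PCDH1, named after its values were seen, separated the other way, with 10.1%, 7.26% and 8.19% in the controls and 5.95%, 7.07% and 4.76% in the knockdowns (exact permutation p = 0.1). PCDH8, PCDH10, PCDH11X, PCDH19 and PCDH20 had no peak. Of 34 genes that act on the clusters or carry their signal (CTCF and cohesin genes, methyltransferases, repressors and cytoskeletal partners), 31 held peaks. DNMT3A, a de novo methyltransferase, led with 25.5% ± 2.85 against 23.0% ± 0.262, followed by the cohesin subunit RAD21 with 10.2% ± 6.83 against 11.6% ± 4.60 (SD, n = 3 each). The control mean was the higher in 19 of these genes and the knockdown mean in 12. Of 16 neighbours of the clusters 8 held peaks, led by RELL2 with a mean over the 6 libraries of 7.24% and by the actin nucleator gene DIAPH1, next to PCDHG, with 5.77%. SLC25A2 and TAF7, which lie between PCDHB and PCDHG, held none. No gene of the 3 lists passed a limma test.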

How the data were processed

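The authors deposited 1 narrowPeak list per library on hg38, and the submitters' processing notes name Bowtie2 2.4.4, SAMtools and MACS2 2.2.6. The authors' columns hold a display score, the fold enrichment of the summit (a ratio) and −log10 p and q values, and their smallest −log10 q was 1.30 to 1.31 in every list. Which of these steps used the input library is not given in the sources used here. The members and gene lists were chosen with earlier results of these data known. Rows of a list with the same interval were counted once, assigned by their summit, and coverage counted each base once. Group comparisons used exact two-sided permutation over the 10 splits of 6 libraries, comparisons within libraries exact sign flips, and features across the genome limma 3.58.1 (R 4.3.3) on genes of at least 1 kb, 10 kb windows and the first 2500 bp of genes. The limma script was tested on simulated data. Genes named with values were the C-type genes, in each cluster those of highest variable-exon coverage, those whose groups do not overlap, and the 2 of highest coverage in each related list. Alternatives were stricter peaks (−log10 q of at least 5), equal numbers of peaks per list, other lengths, pseudocounts, scaling and filters, and leaving out each library.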

Additional observations from a re-analysis of the deposited data

How the results depend on the processing

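Of 251 alternatives, 193 were labelled unchanged. For tested differences this means the same direction and the same side of 0.05. For counts and the untested C-type split it means an equal or close value. Exact comparisons between the groups could not reach 0.05 in any setting, so for them only the direction could change. The 193 are therefore no measure of how firm those comparisons are. The 42 that lost significance each left 1 library out of a paired comparison, where 5 libraries cannot give an exact p under 0.0625. Their differences stayed between 3.86 and 4.33 points for PCDHA over PCDHB, 1.598 and 2.141 for PCDHA over PCDHG, 2.08 and 2.26 for PCDHG over PCDHB, -14.9 and -13.6 for variable minus constant coverage in PCDHA and -12.9 and -11.7 in PCDHG, and 3.10 and 3.71 for exon minus spacer in PCDHA and 1.76 and 2.20 in PCDHG. The PCDHG comparisons between groups had no stable direction. Leaving out 1 library moved its coverage difference between -0.312 and 0.256 points, its difference in peaks between -0.667 and 1.33 (0.333 with all libraries, 0 with stricter peaks and 0 with equal numbers of peaks), and its variable minus constant difference between -2.13 and 0.983 points (0.990 with stricter peaks, 0.981 with equal numbers of peaks). The cause was not tested. For PCDHA the same ranges were -1.50 to -0.667 points and 0.295 to 3.17 points. Leaving out 1 library gave 3 to 6 alternate or PCDHB exons with a peak, 1 to 4 control-only regions (3 with equal numbers of peaks, 1 in all data) and 0 to 1 knockdown-only regions. Replicate numbers did not pair the libraries (correlations of same-numbered libraries -0.10, -0.05 and 0.01 across genes). With the replicate block, PCDHA coverage differed by -1.13 points with an exact sign-flip p of 0.5, where 3 pairs cannot go below 0.25, and no member was called. No member was called by limma under any alternative. Peak calls limit all of this: weak 5hmC below the calling threshold and the read depth behind each list were not measured here.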
